A study of Mus musculus with 6 samples.

Results

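A list of 10 activity-dependent immediate early genes (Fos, Fosb, Junb, Egr1, Egr2, Arc, Npas4, Nr4a1, Ier2 and Dusp1) was followed in whole mouse brains at postnatal day 14. They were chosen by name as a list and matched by symbol, which found 10 of 10 among the 54532 gene identifiers counted. All 10 also passed the filter on low counts that left 16731 genes to test. The brains came from mice on a C57BL/6J strain background. The 3 control brains were Mphosph8fl/+ Nestin-Cre+ and the 3 Mphosph8 mutant brains Mphosph8fl/fl Nestin-Cre+, so both groups carried the Cre transgene. The controls had a floxed allele on a single chromosome, and their titles carry the tag HET. Mutants were thus compared with heterozygous brains and not with brains intact for Mphosph8. Nestin-Cre acts in the nervous system, in neuronal progenitors and their descendants, so cells of other origin, such as microglia, keep the gene in the mutant brains. Where the study's text turns to day-14 RNA sequencing it calls the controls Nestin-Cre+ littermates, and GEO's genotype labels were used. MPP8, the product of Mphosph8, is a subunit of the HUSH complex, which silences genes in chromatin marked by histone H3 lysine 9 trimethylation.

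Each library held between 12956880 and 15223424 counts. Mphosph8 was at 55.8, 48.6 and 70.7 CPM (counts divided by the effective library size and put on the usual common scale) in the control libraries and at 33.1, 27.2 and 26.5 CPM in the mutant libraries, a log2 difference of -1.02 ± 0.12 (SE, edgeR, adjusted p = 0.000157), so the targeted gene followed the labels. The counts cover the whole gene, including exons outside the deleted part. Control replicate 3 stood apart by its sex-linked genes, with 3641 counts over Ddx3y, Eif2s3y, Kdm5d and Uty against 0 or 1 in each of the other 5 libraries. The labels give no sex, while the study's methods state that littermates were matched for age and sex. Main results are therefore also given without control replicate 3.

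Immediate early genes are transcribed within minutes of a stimulus, without new protein synthesis. In neurons, synaptic activity and calcium entry act through the transcription factors CREB and SRF on their promoters, and the mRNAs decay quickly. Their level in brain tissue is used as a record of recent neuronal activity. Several of them, among them Fos, Junb, Egr1, Nr4a1, Ier2 and Dusp1, are inducible in many other cell types as well.

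Because the listed genes varied together between libraries, the promoters of 4 of them are shown, from RefSeq on GRCm38.p6, as 250 bases before to 50 bases after the annotated start. Fos is the best known of the list, Egr2 was the gene whose groups did not overlap, and Junb and Npas4 lay at opposite ends of the second pattern of variation described below. Capitals mark matches, on either strand, to the half-site TGACG (printed as its reverse complement where it lies on the other strand) of the cyclic AMP response element (bound by CREB), to the CArG box (bound by SRF) and to the TATA box TATAAA. The full element TGACGTCA, which contains the half-site on both strands, and the AP-1 element TGACTCA (bound by Fos and Jun proteins) were searched too and had no match in these 4 windows.
Fos, chr12:85473640-85473939, plus strand: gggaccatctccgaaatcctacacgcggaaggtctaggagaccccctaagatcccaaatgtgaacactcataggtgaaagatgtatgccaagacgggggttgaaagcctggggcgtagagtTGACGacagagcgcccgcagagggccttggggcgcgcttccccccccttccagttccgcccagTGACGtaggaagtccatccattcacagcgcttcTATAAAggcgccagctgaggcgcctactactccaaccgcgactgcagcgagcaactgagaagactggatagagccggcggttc
Junb, chr8:84978699-84978998, minus strand: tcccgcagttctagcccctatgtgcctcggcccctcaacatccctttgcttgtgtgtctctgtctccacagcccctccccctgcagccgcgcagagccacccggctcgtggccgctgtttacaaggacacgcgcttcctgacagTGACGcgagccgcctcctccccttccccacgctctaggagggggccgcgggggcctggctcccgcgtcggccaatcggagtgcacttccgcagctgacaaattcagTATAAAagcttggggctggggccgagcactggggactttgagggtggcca
Egr2, chr10:67537620-67537919, plus strand: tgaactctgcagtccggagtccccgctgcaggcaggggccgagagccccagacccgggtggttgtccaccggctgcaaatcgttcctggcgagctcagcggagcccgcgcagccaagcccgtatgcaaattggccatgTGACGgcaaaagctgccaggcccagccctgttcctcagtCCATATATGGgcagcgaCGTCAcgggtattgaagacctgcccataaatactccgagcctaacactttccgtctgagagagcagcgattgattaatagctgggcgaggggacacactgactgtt
Npas4, chr19:4989922-4990221, minus strand: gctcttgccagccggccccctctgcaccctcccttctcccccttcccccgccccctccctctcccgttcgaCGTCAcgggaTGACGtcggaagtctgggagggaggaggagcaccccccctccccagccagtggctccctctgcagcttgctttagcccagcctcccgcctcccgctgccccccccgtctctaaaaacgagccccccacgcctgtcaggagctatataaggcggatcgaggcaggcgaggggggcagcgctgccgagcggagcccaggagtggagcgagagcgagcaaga

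RefSeq windows were found for 7 of the 10 genes, 11 windows in all, of which Egr2 had 5, from starts in the same gene, 3 of them overlapping. Arc, Egr1 and Ier2 are named only. The half-site was present in 9 of these 11 windows and in 7 of 7 genes, against 20.8% of all 32817 promoter windows. The full element was found in the Dusp1 window alone, and in 1.79% of all windows. The CArG box was found only in Egr2, in 4 of its windows, against 1.63% of all windows. The TATA box was found in Fos and Junb, against 13.6%. The Fos match began at position -33 from the annotated start. The Junb match began at position 1, so it did not lie before the start used. The AP-1 element had no match in the 11 windows, against 5.2% of all windows. These matches describe letters in a short window and not binding, and elements more than 250 bases before a start were outside the search.

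The annotation places the genes on 8 chromosomes. Ier2 (ENSMUSG00000053560, chromosome 8, 84661331 to 84662852) was the only member with a single exon in every annotated transcript. Junb (ENSMUSG00000052837), on the same chromosome, had at most 2 exons in a transcript, and the others at most 3 to 8. Egr1 (ENSMUSG00000038418) lies on chromosome 18, from 34859823 to 34864984. None of the 50-base words of the 10 genes' transcripts occurred in transcripts of another gene, so their reads are not shared with a copy. Exons of Junb overlap 173 bases of Prdx2 and those of Dusp1 11 bases of Ergic1, both on the opposite strand, and without a stated strand setting reads from these bases cannot be assigned with certainty.

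Per length, Arc and Egr1 were the most abundant. Their median over the 6 libraries was 12.8 FPKM for Arc (CPM per kilobase of exonic length), with a range of 9.67 to 22.3, and 11.4 FPKM for Egr1, with a range of 8.67 to 15.7. Arc encodes a cytoskeleton-associated protein of synapses, and Egr1 a zinc finger transcription factor. Nr4a1 followed at 9.02 FPKM, then Junb at 6.06, Ier2 at 5.95 and Dusp1 at 5.45. Fos was at 3.52, Npas4 at 1.97, Fosb at 0.766 and Egr2 at 0.442 FPKM. In this order the ranges of neighbours overlapped throughout, except for Npas4, whose lowest library at 1.62 FPKM was above the highest for Fosb at 1.03. In counts, the genes ran from 16 in the lowest library of Egr2, a counting error of 25%, to 963 in the highest of Egr1.

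To see whether the listed genes differed between mutants and these heterozygous controls, edgeR's quasi-likelihood test was used, with adjustment over all genes tested. Of the 10 members 0 were called at an adjusted p under 0.05 and a fold change over 2, and 0.359% of all genes were. The smallest adjusted p of a member was 0.552. With no fold limit 0 members passed, and 0.628% of all genes did. At an unadjusted p under 0.05 stood 3 members, Fos, Egr2 and Arc, and 6.51% of all genes. All 3 were lower in mutants (2.41% of all genes) and 0 were higher (4.09% of all genes). DESeq2 called 0 members and 0.347% of all genes, with 2 members at an unadjusted p under 0.05. Limma-voom called 0 members and 0.347% of all genes, with 1 member at an unadjusted p under 0.05. Mutant and control values did not overlap for 1 member, lower in mutants (5.42% of all genes), and for 0 in the other direction (6.23% of all genes). The log2 fold change was negative for 9 of 10 members, with a median of -0.25, while 52.4% of all genes were negative, with a median of -0.01. The 10 values come from the same 6 brains and move together, so they are not 10 independent readings. Without control replicate 3 all 10 were negative, with a median of -0.45, and without control replicate 2 the median was -0.08.

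**Figure D1:**
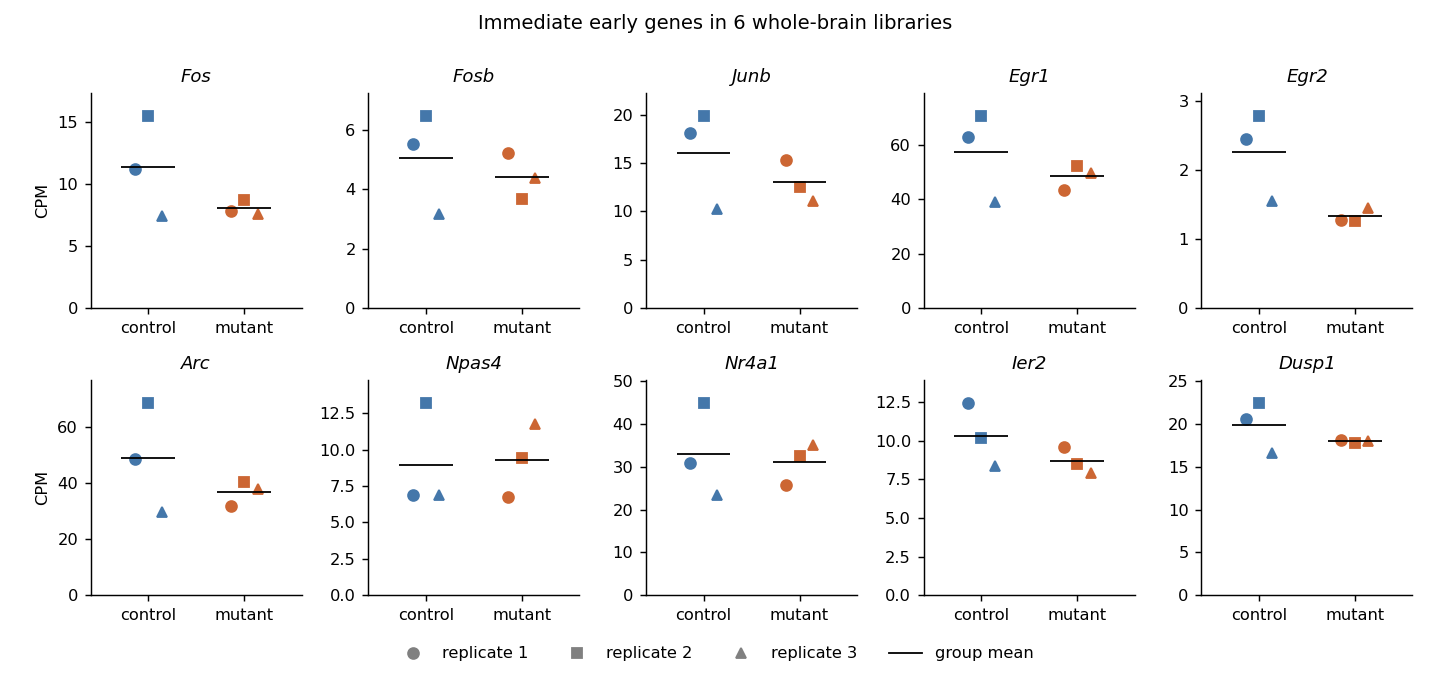
CPM of each listed gene in the 3 control (blue) and 3 Mphosph8 mutant (orange) libraries, on linear axes from 0, with symbols for the replicate number, and a line at the group mean. Control replicate 2 is the highest library for 9 of the 10 genes and control replicate 3 the lowest for 7.

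Fos, Fosb and Junb encode subunits of the AP-1 transcription factor, in which a Fos protein pairs with a Jun protein. Fos (ENSMUSG00000021250, chromosome 12, 85473890 to 85477273) was at 11.2, 15.5 and 7.42 CPM in the control libraries and at 7.84, 8.73 and 7.56 CPM in the mutant libraries. Control replicates 1 and 2 were above every mutant library and control replicate 3 below every one, so the groups overlapped. The group means were 11.4 ± 4.02 and 8.04 ± 0.613 CPM (SD, n = 3). On the log2 scale mutants differed by -0.49 ± 0.20 (SE, 95% interval -0.91 to -0.075), which did not pass edgeR's test (adjusted p = 0.616). Leaving out control replicate 3 gave -0.72 (edgeR, adjusted p = 0.0807), and leaving out control replicate 2 gave -0.22. Junb was at 18.2, 19.8 and 10.3 CPM in controls and at 15.4, 12.5 and 11.1 CPM in mutants. Here too control replicates 1 and 2 were highest and control replicate 3 lowest, and the log2 difference was -0.31 ± 0.19 (edgeR, adjusted p = 0.89), or -0.55 without control replicate 3 (edgeR, adjusted p = 0.178). Fosb was at 5.52, 6.44 and 3.17 CPM in controls and at 5.2, 3.66 and 4.36 CPM in mutants. Its order of libraries again put control replicate 3 lowest, and the log2 difference was -0.19 ± 0.23 (edgeR, adjusted p = 0.959), or -0.44 without that library (adjusted p = 0.849).

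Egr1 and Egr2 encode zinc finger transcription factors of a single family. Egr1 was at 63.0, 70.5 and 38.9 CPM in control libraries and at 43.6, 52.3 and 49.7 CPM in mutant libraries. With the deepest counts of the list, it had the same order of controls, and the mutants differed by -0.24 ± 0.15 (edgeR, adjusted p = 0.893). Without control replicate 3 the value was -0.46 (edgeR, adjusted p = 0.0689), and without control replicate 2 it was -0.07. Egr2 (ENSMUSG00000037868, chromosome 10, 67535475 to 67542188), also known for its part in myelination by Schwann cells, was at 2.46, 2.78 and 1.55 CPM in controls and at 1.28, 1.27 and 1.45 CPM in mutants. It was the only member whose mutant values lay wholly below its control values, at group means of 2.27 ± 0.638 and 1.33 ± 0.104 CPM (SD, n = 3). The log2 difference of -0.75 ± 0.29 (SE, 95% interval -1.36 to -0.14) was the largest of the list, but did not pass edgeR's test (adjusted p = 0.552), and without control replicate 3 it was -0.96 (edgeR, adjusted p = 0.343). These values rest on 16 to 38 counts per library.

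Arc (ENSMUSG00000022602, chromosome 15, 74669083 to 74672570) was at 48.3, 68.3 and 29.6 CPM in control libraries and at 31.8, 40.4 and 37.6 CPM in mutant libraries. Control replicate 2 had 2.31 times the level of control replicate 3, the widest range of the list, and the mutant libraries lay between them. Mutants differed by -0.41 ± 0.19 on the log2 scale (SE, 95% interval -0.81 to -0.0047), which did not pass edgeR's test (adjusted p = 0.76). Leaving out control replicate 3 gave -0.67 (edgeR, adjusted p = 0.0372), under the fold limit of 2. Leaving out control replicate 2 gave -0.09 (edgeR, adjusted p = 1.00). With all 6 libraries and no filter on low counts, the same difference of -0.41 had an adjusted p of 0.005 in edgeR, and in the other 12 alternatives the adjusted p was 0.462 or more.

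Npas4 and Nr4a1 encode transcription factors of different families, a neuronal PAS-domain protein and an orphan nuclear receptor. Npas4 was at 6.85, 13.2 and 6.88 CPM in control libraries and at 6.72, 9.41 and 11.8 CPM in mutant libraries. It was the only member with a positive log2 fold change, 0.07 ± 0.23 (edgeR, adjusted p = 0.988), and its groups overlapped over nearly their whole range. The sign turned without control replicate 3, at -0.09 (edgeR, adjusted p = 0.988). Nr4a1 was at 30.9, 44.8 and 23.3 CPM in controls and at 25.7, 32.5 and 35.0 CPM in mutants. The log2 difference was -0.08 ± 0.17 (edgeR, adjusted p = 0.984), or -0.28 without that library (adjusted p = 0.896). For both genes mutant replicates 2 and 3 were above control replicate 1, which was not so for the other 8 genes.

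Ier2 encodes a small nuclear protein, and Dusp1 a phosphatase that switches off MAP kinases. Ier2 was at 12.4, 10.2 and 8.37 CPM in control libraries and at 9.6, 8.51 and 7.92 CPM in mutant libraries. Control replicate 1 was its highest library, and the log2 difference was -0.25 ± 0.16 (edgeR, adjusted p = 0.89), or -0.38 without control replicate 3 (edgeR, adjusted p = 0.69). Dusp1 was at 20.5, 22.4 and 16.6 CPM in controls and at 18.1, 17.8 and 18.0 CPM in mutants. The 3 mutant libraries were nearly equal and again lay between control replicate 3 and the other controls. For Dusp1 the difference was -0.14 ± 0.12 (edgeR, adjusted p = 0.925), or -0.26 without control replicate 3 (edgeR, adjusted p = 0.785).

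**Figure D2:**
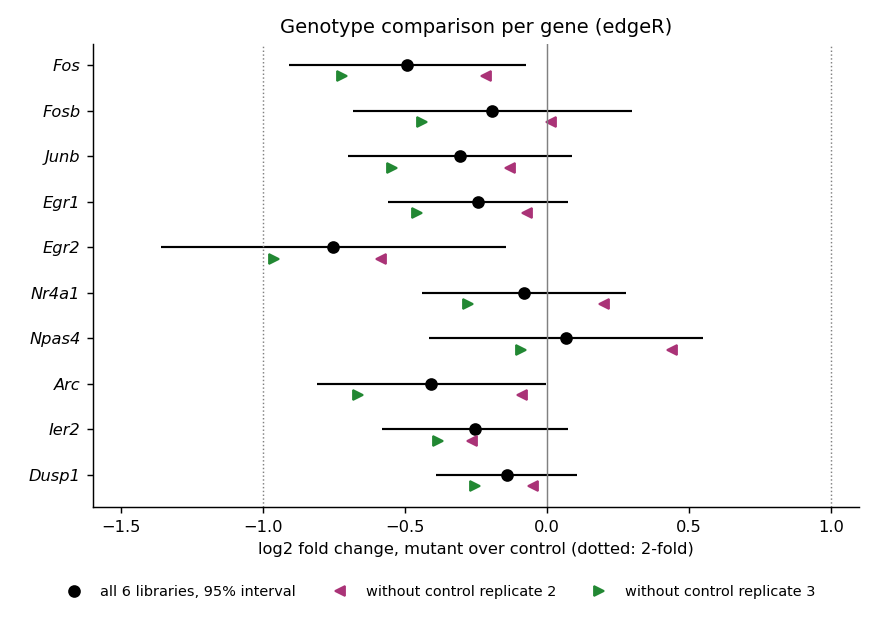
Log2 fold change of Mphosph8 mutant over control for each listed gene from edgeR on all 6 libraries (black points, with 95% intervals as lines), with the values without control replicate 2 (left-pointing triangles) and without control replicate 3 (right-pointing triangles). The values without control replicate 3 lie below those from all libraries, and the intervals of Fos, Egr2 and Arc are the ones below 0.

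The listed genes varied jointly between libraries. After each gene's group mean was removed, the first component, that is the single library pattern that carries the most variance, held 76.9% of the variance of the 10 genes, against 37.3% when all 16731 genes were decomposed at once. All 10 genes had the same sign on this component, with Arc weighted most and Ier2 least. Its library values were 0.10, 0.64 and -0.75 for controls 1, 2 and 3 and between -0.11 and 0.07 for the mutants. A large share is not particular to these genes: of 14 other lists, midbrain and hindbrain, cerebellar, oligodendrocyte and blood genes had 84.8%, 80.7%, 79.0% and 79.5% on their own first component, and the share was lowest for upstream regulators at 39.2%. Of the 45 pairs of genes, 44 deviated the same way (a positive correlation of their deviations, as in 49.97% of all pairs of tested genes), and the median Pearson correlation of the deviations was 0.81, against -0.001 over all pairs of tested genes. In the cerebellar, oligodendrocyte and blood lists all pairs deviated the same way, at median correlations of 0.72, 0.68 and 0.70. These correlations are descriptions over 6 libraries of 2 groups, and the points share library, depth and normalisation. The pairs most alike were Egr2 with Dusp1, Egr1 with Arc and Fos with Arc, each at 0.97, and the pair least alike was Npas4 with Ier2 at -0.27. Without control replicate 3 the median pair correlation was 0.36 and 29 of the 45 pairs deviated the same way. The first component then held 79.0%, but it was another pattern: Npas4, Nr4a1 and Arc weighed most, at 0.73, 0.43 and 0.34, and Ier2, Junb and Fosb had the opposite sign, at -0.24, -0.12 and -0.04. That all 10 genes moved the same way thus rested on control replicate 3.

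**Figure D3:**
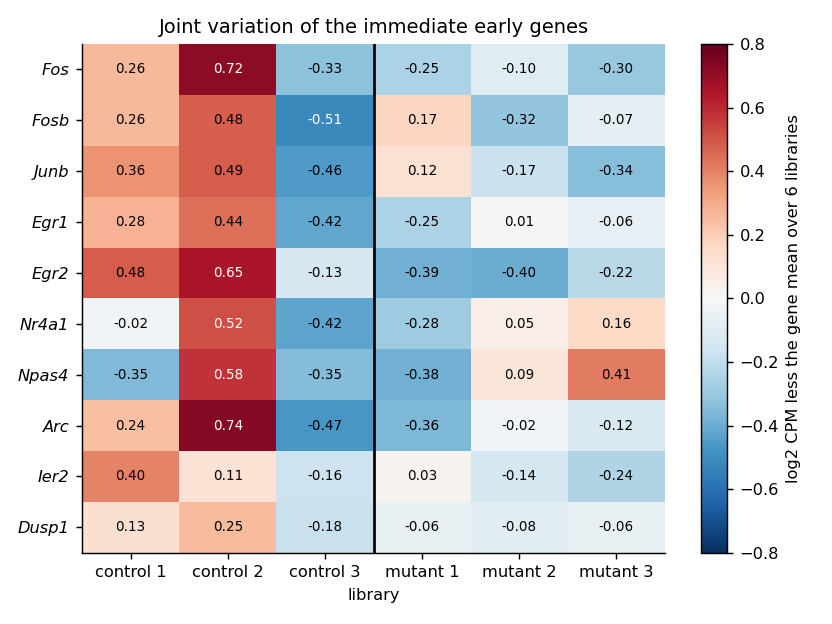
Log2 CPM (prior count 2) of each listed gene in each library less that gene's mean over the 6 libraries, in colour and as printed values, with a line between controls and mutants. Control 2 is positive for 10 genes and control 3 negative for 10, and the mutants lie mostly between.

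Most of this variation lay among the controls. The mean level of the list, each gene taken relative to its own mean on the log2 scale, was 0.20, 0.50 and -0.34 in controls 1, 2 and 3 and -0.17, -0.11 and -0.08 in mutants 1, 2 and 3. The highest control was thus 1.79 times the lowest, and the highest mutant 1.06 times the lowest. Between controls 1 and 2 alone the ratio was 1.23. Mutants were lower on average by a log2 difference of -0.24, which was smaller than the pooled SD between replicates of 0.30. Without control replicate 3 the difference was -0.47, and without control replicate 2 it was -0.05, so the size of the difference rests on which control brains are counted. In 9 of 10 genes control 2 was the highest control and in 9 of 10 control 3 the lowest, against 27.9% and 35.1% of all genes. In 8 of 10 all mutants were below controls 1 and 2, against 10.8% of all genes, and in 7 of 10 control 3 was below all mutants, against 24.8%. The orders counted are those seen in these same members, which move together, so the counts are descriptions and no test.

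Over all 6 libraries the members were also more variable than most genes. The within-group SD of log2 CPM had a median of 0.37 over the 10 members and 0.14 over all genes. Among the 1000 tested genes nearest to it in level, Egr1 was at the percentile 100, Nr4a1 at 99.9, Arc at 99.6 and Junb at 99.4, while Ier2 was at 77.8, Dusp1 at 65.9 and Egr2 at 47.3. The edgeR dispersion of the members had a median percentile of 89.0 among all genes. These percentiles include control replicate 3 and are not given without it. Among mutants alone the median SD was 0.16 for the members and 0.14 for all genes. Among controls without control replicate 3 it was 0.18 for the members and 0.096 for all genes. The SD was larger among controls than among mutants in 10 of 10 members, with a median of 0.49 against 0.16, while this was so for 44.4% of all genes, at medians of 0.12 and 0.14. The ratio of the control to the mutant SD ran from 1.33 for Npas4 to 16.7 for Dusp1. With 3 brains a group and members that move together, this is a description of these 6 brains, and no test of the difference in spread was made. It rested on control replicate 3: without it 7 of 10 members had the larger SD among controls, with medians of 0.18 and 0.16. Without control replicate 2 it was 9 of 10, with medians of 0.43 and 0.16. The 8 cerebellar genes also had a larger SD among controls in 8 of 8.

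**Figure D4:**
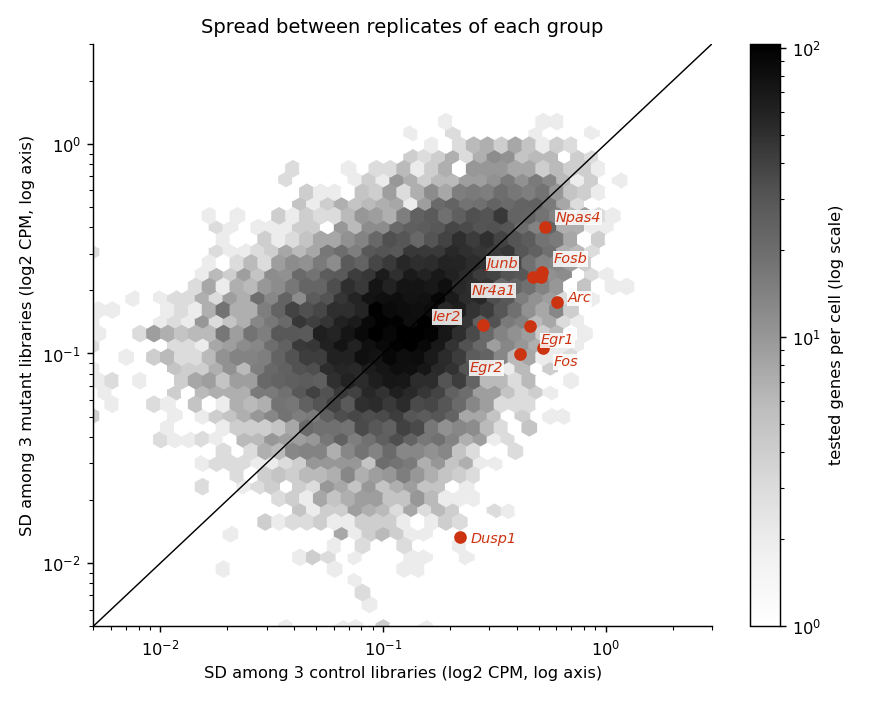
SD of log2 CPM among the 3 control libraries (horizontal) and among the 3 mutant libraries (vertical) on log axes, for all tested genes (grey, darker where more genes fall) and the 10 listed genes (red). The line marks equal spread, and the 10 listed genes all lie below it.

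A second pattern separated members from each other. The second component of the deviations held 19.0% of the variance, and the first and second together 95.9%. Npas4 and Nr4a1 had the largest positive weights on it, 0.66 and 0.28, and Junb, Ier2 and Fosb the largest negative ones, -0.45, -0.37 and -0.36. Its library values were -0.51, 0.24 and 0.27 in controls 1, 2 and 3 and -0.62, 0.18 and 0.44 in mutants 1, 2 and 3. In CPM terms, the log2 ratio of Junb to Npas4 was 1.39, 0.59 and 0.57 in controls and 1.18, 0.41 and -0.08 in mutants. The ratio of Fosb to Npas4 had control 1 and mutant 1 highest too, at -0.30 and -0.36 against -1.40 to -1.02 in the other 4. The ratio of Ier2 to Nr4a1 did not split the libraries this way, at -1.30, -2.12 and -1.46 in controls and -1.41, -1.91 and -2.12 in mutants, where control 3 was close to control 1 and mutant 1. These pairs of genes were chosen after their values were seen. Without control replicate 3 the contrast of Npas4 and Nr4a1 with Ier2, Junb and Fosb was the first component, as given above, with library values of -0.54 and 0.54 in controls 1 and 2 and -0.51, 0.15 and 0.36 in the mutants. The share of Bc1, a short neuronal RNA, was also highest in control 1 and mutant 1, at 3.6% and 4.22% of counts against 1.97% to 2.72%. The summed CPM of 10 heat shock genes was 661, 571 and 583 in controls and 599, 553 and 516 in mutants, but the place of mutant 1 rested on Hsp90aa1: without this gene the sums were 499.7, 452 and 451 in controls and 428, 424 and 398 in mutants. The part of either in the second pattern was not tested.

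Relatives and other inducible genes were taken from lists written for this work. Of 40 other rapidly inducible genes 39 were tested, and edgeR, DESeq2 and limma-voom called 0 of them. At an unadjusted p under 0.05 stood 3 in edgeR, all lower, 1 in DESeq2 and 3 in limma-voom. Of all genes, 6.51% stood there in edgeR, and 2.41% were lower. The log2 fold changes of the 39 were negative for 28 and positive for 11, while 52.4% of all genes were negative. Their median was -0.08 and their range -0.44 to 0.53. Groups did not overlap for 4 of the 39 with mutants lower, among them Jun and Dusp5, and for 1 with mutants higher. Of all genes, 5.42% did not overlap with mutants lower and 6.23% with mutants higher. The 3 in edgeR were Jun, a main partner of Fos proteins, Dusp5, a phosphatase of the ERK kinases, and Gadd45b, a stress- and activity-induced gene. Jun was at 57.0, 48.4 and 49.3 CPM in controls and at 42.8, 44.6 and 38.4 CPM in mutants. Its mutant values were all below its control values, at a log2 difference of -0.30 ± 0.09 (edgeR, adjusted p = 0.296). Dusp5 was at -0.26 ± 0.11 and Gadd45b at -0.44 ± 0.20, and neither passed (edgeR, adjusted p = 0.679 and 0.716). Jund, Homer1 and Plk2, the most abundant of the list in CPM, were at -0.02, 0.00037 and -0.0018. Jund encodes a further Jun protein, Homer1 a postsynaptic scaffold and Plk2 a kinase.

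Some of these genes followed the mean level of the list over the libraries. Among the 15824 genes with a mean of at least 1 CPM, ranked by Pearson correlation with the mean level of the list over the 6 libraries, the top 1% held 5 of the 39 other inducible genes and the top 10% held 15. The 5 were Egr4, Nr4a3, Egr3, Sik1 and Ptgs2, named after their ranks were seen. A high rank was not particular to inducible genes. Of 8 forebrain and 8 oligodendrocyte markers, 3 of each were in the top 10% and 1 of each in the top 1%. Their median r was 0.48 and 0.49, against 0.40 for the 39 inducible genes. Egr4, a relative of Egr1, was at 12.4, 14.3 and 6.88 CPM in controls and at 8.48, 8.88 and 10.47 CPM in mutants. Its highest library was 2.07 times its lowest, close to the 2.08 times of Fos, whereas Egr3, at 25.5 to 35.9 CPM, and Nr4a3, at 16.5 to 22.9 CPM, varied less. The 10 genes most like the list were Sgk1, Tbr1, Fbxo32, Rtl9, Zscan2, Med7, Egr4, Cryzl2, G6pdx and Prom1, with r from 0.98 down to 0.95 and rho from 0.77 to 1. With 6 libraries and so many genes such values occur readily, and they are given as a ranking with no test. Group means were not removed for it, so a high rank can also come from a shared difference between groups. When control replicate 3 was left out, all 10 were still in the top 1%, but of the 5 inducible genes only Egr4 and Nr4a3 were, and the top 10% held 12 of the 39. Several of the 10 changed little: Sgk1 stayed between 60.8 and 63.7 CPM and G6pdx between 30.9 and 32.4 CPM.

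Late-response genes, which follow the immediate early genes and encode secreted and synaptic proteins, were not near the top of that ranking. Of 12 tested, 0 were called and 0 had an unadjusted p under 0.05 in edgeR, DESeq2 or limma-voom, and 0 were in the top 10% of the ranking. The median log2 fold change was -0.07. The neurotrophin gene Bdnf was at 18.2, 17.9 and 15.1 CPM in controls and at 22.6, 17.0 and 17.8 CPM in mutants, a log2 difference of 0.16 ± 0.13 (edgeR, adjusted p = 0.92). The neuropeptide precursor Vgf, at 226 to 262 CPM in controls, was highest in mutant 1, and so were Scg2, another precursor, and Nptx1, a synaptic pentraxin gene. Their log2 differences were 0.0040, -0.09 and -0.03. Nptx2, which encodes a related pentraxin, was at -0.14 ± 0.09 and the prohormone convertase gene Pcsk1 at -0.17 ± 0.13 (edgeR, adjusted p = 0.897 and 0.92). The SD of log2 CPM was larger among controls in 1 of the 12.

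Of 26 genes that act upstream (SRF and CREB with their cofactors, MEF2 factors, calcium channels and kinases), 26 were tested and 0 were called by edgeR, DESeq2 or limma-voom. At an unadjusted p under 0.05 stood 0 in edgeR, 1 in DESeq2 and 0 in limma-voom. Log2 fold changes were positive for 19 of the 26 and for 7967 of all 16731 genes. The median of the 26 was 0.03. The largest was that of Camk2a, an abundant synaptic kinase, at 0.19 ± 0.11 (edgeR, adjusted p = 0.866). It was at 1667, 1805 and 1560 CPM in controls and at 1765, 1794 and 2182 CPM in mutants, with mutant 3 alone above every control. Crtc3 and Crtc1, cofactors of CREB, were at 0.17 ± 0.10 and 0.14 ± 0.08 (edgeR, adjusted p = 0.866 and 0.875). Camk2b and the NMDA receptor gene Grin1 were at 0.05 and 0.07.

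Lists of cell type and region markers were read beside the joint pattern, since in whole brain a smaller share of expressing cells and less RNA per cell cannot be told apart. The 8 neuron markers ranged from 3101 to 3430 summed CPM, and each was detected in every library. Single neuron markers moved in opposite ways, with 15 of their 28 pairs deviating the same way, so the sum does not describe each marker. The 8 forebrain markers summed to 1049, 897 and 738 CPM in controls and 818, 886 and 874 CPM in mutants. Nrgn supplied most of this sum, at 886, 731 and 595 CPM in controls and 664, 721 and 703 CPM in mutants. With each gene taken relative to its own mean, the log2 level was 0.067, 0.065 and -0.155 in controls. In mutants it was -0.087, 0.022 and 0.090. Control 3 was thus lowest in this list as well, but control 2 was not highest. Of this list Tbr1, a transcription factor of cortical glutamatergic neurons, had the library order of the mean level of the 10 listed genes. That order was not seen in any single listed gene. Tbr1 was at 26.9, 30.4 and 24.0 CPM in controls and at 25.3, 25.5 and 26.3 CPM in mutants. The summed CPM of the 10 listed genes was 219, 274 and 146 in controls and 165, 187 and 185 in mutants. Vessel markers lay between 481 and 550.2 summed CPM and microglia markers between 606 and 720 summed CPM, with mutant 1 highest for vessels and mutant 3 for microglia. The 8 oligodendrocyte markers summed to 25366, 25921 and 21657 CPM in controls and 19922, 19399 and 17194 CPM in mutants, so control 3 was lowest among the controls here too, and 8 of 8 had a negative log2 fold change with 2 at an adjusted p under 0.05 in edgeR. The others of these lists had 0 genes at that adjusted p. The part of these markers in the variation of the immediate early genes was not tested.

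**Figure D5:**
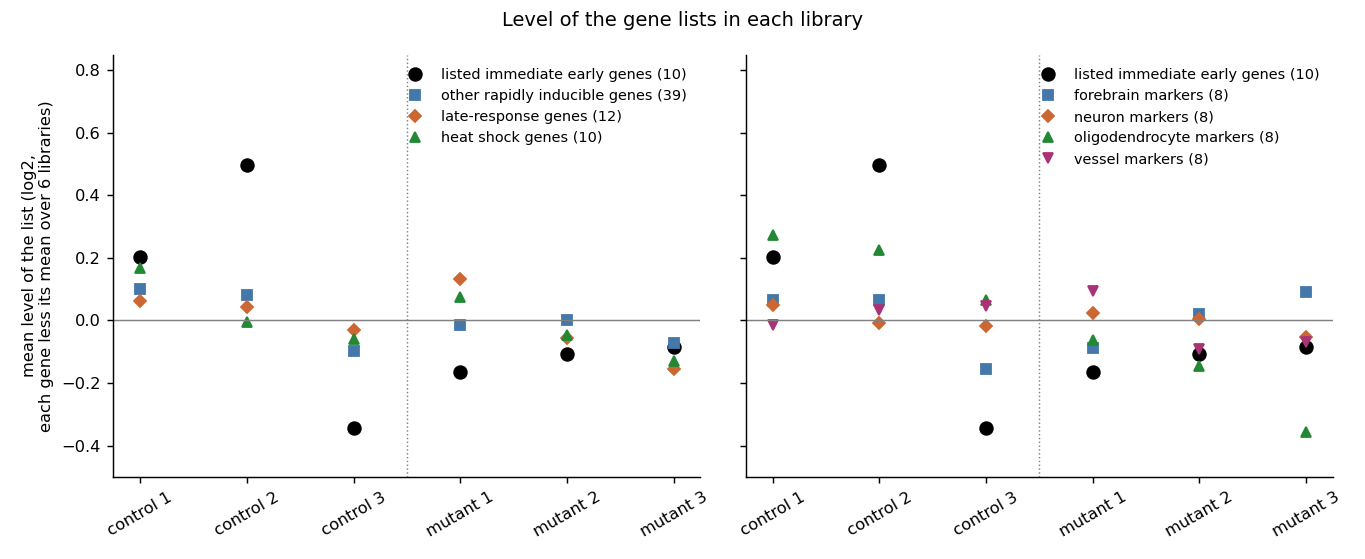
Mean level of gene lists in each library on the log2 scale, each gene taken less its mean over the 6 libraries, with the listed immediate early genes in black in both panels. The listed genes run from 0.50 in control 2 to -0.34 in control 3, and the neuron markers stay between -0.05 and 0.05.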

How the data were processed

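RNA of whole brains from 3 control and 3 Mphosph8 mutant littermates was measured. The authors enriched polyA RNA, trimmed 50-base single reads (Trim Galore 0.5.0), filtered out ribosomal, mitochondrial, phiX and adapter reads (Bowtie2 2.3.4.1), aligned to GRCm38 with STAR and deposited raw counts per Ensembl gene (featureCounts, Subread 1.6.2). The strand setting is not given in the sources used here. Groups and replicate numbers follow the sample titles, and p-values set the difference between groups against the spread between these libraries.

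Symbols, coordinates, exons and lengths came from GENCODE M21, which matched 54495 of 54532 identifiers. Older symbols were matched through RefSeq synonyms. Genes were tested with edgeR 4.0.16 in R 4.3.3 (filterByExpr, TMM, quasi-likelihood F test, genotype alone), with Benjamini-Hochberg adjustment over 16731 genes, and standard errors were derived from F. Log2 CPM used a prior count of 2. The components are singular vectors of log2 CPM less the group mean. The steps were tested on simulated data. The fit was repeated with RLE normalisation, DESeq2 1.42.0, limma-voom (limma 3.58.1), other count filters, single libraries omitted, a replicate block, and GC adjustment by loess (span 0.3). The SD among controls without each control, the ranking and components without control replicate 3, and the heat shock sum without Hsp90aa1 were added after the data were seen.

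The members and lists were chosen with earlier results of these data known. Named were the 10 members, Mphosph8, the 3 genes with the smallest p and the 3 with the highest CPM of each inducible, late-response and upstream list, and the 10 genes most like the members in pattern. Other genes, Egr3, Nr4a3, Sik1, Ptgs2, Hsp90aa1, Nrgn and the Y-linked genes, were named after their values were seen. Replicates differed by more than sampling noise (chi-square per degree of freedom 3.67 to 13.4). Summed levels of astrocyte, choroid plexus, midbrain and hindbrain, cerebellar and blood markers were 9185 to 10795, 1084 to 1755, 49.2 to 67.9, 959 to 1178 and 329 to 417 CPM.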

Additional observations from a re-analysis of the deposited data

How the results depend on the processing

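Of the 10 members, and of the 39 inducible, 12 late-response and 26 upstream genes tested, 0 were called under any of the 14 alternatives or without the fold limit. The median log2 fold change of the members was -0.25 to -0.22 in the alternatives with all libraries, and -0.45 (without control replicate 3) to -0.08 (without control replicate 2) with a library left out. Of 140 values of single members 134 kept direction and call, and 6 turned direction, all with a library left out. Npas4 fell to -0.10 without control replicate 1, -0.09 without control replicate 3 and -0.14 without mutant replicate 3, and reached 0.44 without control replicate 2. Nr4a1 ranged from -0.28 without control replicate 3 to 0.20 without control replicate 2, and was 0.04 without mutant replicate 1. Fosb ranged from -0.44 without control replicate 3 to 0.014 without control replicate 2. Arc reached an adjusted p under 0.05 in edgeR in 2 alternatives, and the cause was not tested.

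The first component held 76.8% to 76.9% of the members' variance under RLE size factors, a prior count of 0.5 and GC correction, and 68.2% to 87.2% with a library left out. The difference in mean level was -0.47 to -0.05 with a library left out. Control and mutant libraries carry the same replicate numbers, but nothing in the labels ties such libraries together. Their deviations correlated at 0.10, -0.05 and 0.08 over all genes, so the numbers were not taken to pair the libraries, and at 0.83, 0.36 and 0.30 over the 10 members. Over all genes 3 of 6 libraries correlated best with their own number. With the replicate block 0 members were called, at a median of -0.23, and with block and GC correction 0, at -0.22, so that the block changed no call. Depth limits Egr2 most, at 16 to 38 counts per library.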
